A study of Homo sapiens with 6 samples.

Results

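The regions described here are broad accessible domains, long stretches of open chromatin shared by all 6 ATAC-seq libraries of one human multiple myeloma cell line. They were selected on measured values. Peaks of the 6 lists that overlapped by 1 bp or more on chromosomes 1 to 22 and X were joined, which gave 75653 merged regions, of which 23574 held a peak of every list. Regions in 48 peak-dense bins (1 Mb, averaging at least 60 peaks per list) were left out, and 21857 shared regions remained. The 1533 of these with a merged width of 3000 bp or more are the broad domains, and the other 20324 are called narrower shared regions. Another 604 broad shared regions lay in the bins left out.

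ATAC-seq uses the Tn5 transposase to cut and tag DNA where nucleosomes leave it exposed, so that a peak marks an accessible stretch of chromatin. The line, ARP1, derives from multiple myeloma, a cancer of antibody-secreting plasma cells. Of the 6 libraries, 3 came from cells labelled KDM6A knockout (KO) and 3 from cells labelled KDM6A wild type (WT), with no treatment named for either group. The study asked how KDM6A affects DNA accessibility. How the knockout was made, and whether the knockout cells are 1 clone, is not given in the sources used here. The labels number 3 biological replicates per genotype without saying that they were separate cultures. The p-values given below therefore measure only the spread between these libraries, which may be technical.

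KDM6A, also called UTX, is a demethylase of histone H3 lysine 27 and works beside the KMT2C and KMT2D methyltransferases at enhancers. Most accessible sites are short, the length of a few nucleosomes. Broad ones are known from the promoters of highly expressed and cell-identity genes, from clusters of enhancers, and from arrays of repeated genes such as those for ribosomal RNA. Near-identical copies of such repeats share reads, so peaks over them cannot be assigned to one copy with certainty.

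Peaks numbered 33018 to 37269 per KO list and 54409 to 56012 per WT list on the chromosomes used. Read totals are not in the lists, and the depth the libraries reached is not given in the sources used here. The background pileup recovered from the fold values was 2.05 to 2.56 in the KO lists and 3.11 to 3.77 in the WT lists, and the lowest fold over background that was called was 3.09 to 3.31 against 2.72 to 2.92. The KO lists therefore hold fewer peaks from a lower background with a higher fold limit, and the part of this in the widths below was not tested. The region at the start of KDM6A itself (chrX:44872212-44874149) was narrower than 3000 bp and covered in every library, with 947 to 1782 bp in the KO lists and 1767 to 1936 bp in the WT lists, so an open promoter does not check the knockout. Among plasma cell marker genes, 7 of 10 had a peak within 1 kb of a gene end in all 6 lists, against 2 of 7 B cell, 3 of 7 T or NK cell, 0 of 5 myeloid and 0 of 5 erythroid and platelet markers, and all 5 myeloid markers had a peak in no list. The T or NK cell markers with a peak in every list were CD3E, CD8A and NCAM1. Some markers had a peak in part of the lists. The B cell factors PAX5 and EBF1 and the erythroid HBA1 had one in 5 lists, and CD4 in 4. Of the plasma cell markers, PRDM1 had one in 4 lists, JCHAIN in 3 and SLAMF7 in 2.

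The promoters of 6 genes show what kinds of sequence lie in these domains. Each belongs to the gene with the widest domain of its gene list (histones, plasma cell identity, immediate early genes, myeloma genes, KDM6A-related coactivators, and Polycomb and other chromatin regulators). The sequences are RefSeq promoters on GRCh38.p14, from 250 bases before to 50 after the start, printed 5′ to 3′ in the direction of transcription. Capitals mark GGGCGG, the GC box bound by Sp1-type factors, and CCAAT, the box bound by NF-Y, on either strand (CCGCCC and ATTGG on the other strand).
H2BC12, a core histone gene, chr6:27146809-27147108, minus strand: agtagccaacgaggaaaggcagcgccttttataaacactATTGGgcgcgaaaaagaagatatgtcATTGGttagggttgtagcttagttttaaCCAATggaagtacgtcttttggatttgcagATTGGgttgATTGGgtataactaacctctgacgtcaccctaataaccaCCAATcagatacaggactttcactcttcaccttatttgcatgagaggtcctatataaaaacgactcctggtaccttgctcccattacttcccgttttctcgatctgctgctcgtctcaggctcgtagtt
MZB1, a chaperone of antibody secretion, chr5:139389864-139390163, minus strand: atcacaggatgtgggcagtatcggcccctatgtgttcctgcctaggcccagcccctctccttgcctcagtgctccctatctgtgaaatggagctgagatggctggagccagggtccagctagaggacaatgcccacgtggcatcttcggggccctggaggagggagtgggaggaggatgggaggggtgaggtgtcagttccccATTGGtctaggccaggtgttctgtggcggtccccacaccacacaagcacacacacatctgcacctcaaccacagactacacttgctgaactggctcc
IER2, an immediate early gene, chr19:13150161-13150460, plus strand: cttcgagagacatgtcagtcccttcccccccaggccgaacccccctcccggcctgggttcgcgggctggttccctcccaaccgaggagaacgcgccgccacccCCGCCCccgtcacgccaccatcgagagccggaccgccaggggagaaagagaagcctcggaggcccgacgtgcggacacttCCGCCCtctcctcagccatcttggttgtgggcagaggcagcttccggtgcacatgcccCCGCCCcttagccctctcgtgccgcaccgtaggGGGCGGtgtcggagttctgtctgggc
IRF2BP2, a transcriptional corepressor, chr1:234610129-234610428, minus strand: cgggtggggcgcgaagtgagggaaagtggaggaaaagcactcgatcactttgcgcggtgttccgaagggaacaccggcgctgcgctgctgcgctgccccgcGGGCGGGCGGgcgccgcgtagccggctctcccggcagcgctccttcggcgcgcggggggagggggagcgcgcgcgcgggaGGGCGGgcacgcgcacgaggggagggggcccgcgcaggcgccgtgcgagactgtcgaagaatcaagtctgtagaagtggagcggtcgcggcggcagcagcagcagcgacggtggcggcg
BRD2, a reader of acetylated histones, chr6:32968344-32968643, plus strand: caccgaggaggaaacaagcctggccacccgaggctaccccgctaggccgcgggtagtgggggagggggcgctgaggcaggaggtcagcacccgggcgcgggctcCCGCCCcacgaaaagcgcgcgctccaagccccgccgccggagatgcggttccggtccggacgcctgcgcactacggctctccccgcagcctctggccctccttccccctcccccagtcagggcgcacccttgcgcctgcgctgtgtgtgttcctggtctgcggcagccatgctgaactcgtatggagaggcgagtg
ARID5B, a DNA-binding chromatin regulator, chr10:62049107-62049406, plus strand: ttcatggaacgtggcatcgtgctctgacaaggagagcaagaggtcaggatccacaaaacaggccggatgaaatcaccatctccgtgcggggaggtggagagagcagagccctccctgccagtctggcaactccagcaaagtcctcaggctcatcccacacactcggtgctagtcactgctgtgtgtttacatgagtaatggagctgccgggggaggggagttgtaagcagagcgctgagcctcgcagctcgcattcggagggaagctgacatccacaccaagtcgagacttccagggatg
The H2BC12 promoter held 6 CCAAT matches and no GC box, with 43.3% G and C. IER2 held 4 GC boxes, IRF2BP2 held 3 and BRD2 held 1, and their G and C content was 69.7%, 74.3% and 71.7%. MZB1 held 1 CCAAT match and a CpG observed-to-expected ratio of 0.150. ARID5B held neither motif in this window. The 6 promoters therefore run from CpG-rich to CpG-poor.

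Promoters inside broad domains resembled those inside narrower shared regions in composition, and both differed from promoters in neither set. The last group includes starts in the peak-dense bins left out, whether or not a shared peak covers them. The RefSeq table held 22131 starts of 15811 protein-coding genes, and 1436 of these starts lay in a broad domain. Their median G and C content was 67.7%, beside 66.3% for the 10062 in narrower shared regions and 56.0% for the 10633 in neither. The median CpG observed-to-expected ratio was 0.840, 0.855 and 0.365 in the same order. A GC box lay in 74.9% of promoters in broad domains, in 74.5% of those in narrower regions and in 56.3% of all promoters. CCAAT occurred in 34.4%, 36.1% and 34.6%.

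Of the 8 motifs searched, the widest gap in share between broad and narrower was that of the ETS motif. CCGGAAG, which ETS-family factors bind, was found in 10.4% of promoters in broad domains against 21.5% in narrower regions and 12.8% of all promoters. TATAAA, the TATA box, was in 6.41% against 4.15% and 9.46%. TGACGTCA, the site of CREB-type factors, was in 2.02% against 3.42% and 2.26%, and TGANTCA, the AP-1 site, in 4.11% against 3.54% and 6.15%. The E-box CACGTG was in 9.89% against 10.6% and 8.34%, and the interferon-stimulated response element, read by interferon regulatory factors, in 2.79% against 2.57% and 3.17%. All motifs were searched on both strands in the 300 base windows, these letters can overlap each other, and a match is not a bound site.

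Broad domains were mostly a little over the width limit. The median merged width was 3632 bp, the middle 50% lay between 3248 and 4341 bp, and 996 domains (65.0%) were under 4000 bp. Another 309 spanned 4000 to 5000 bp, 164 spanned 5000 to 7000 bp, 39 spanned 7000 to 10000 bp and 25 were wider still, up to 87253 bp. In all they covered 6.50 Mb. At the limit itself, the regions just inside were at INTS6, SOCS1 and ERGIC1, each 3000 bp, and those just outside were at GLUD1 (2999 bp), KLHL3 (2997 bp) and LONRF1 (2997 bp).

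A merged width is not the width seen in any one library. Only 286 of the 1533 domains (18.7%) had 3000 bp or more covered by peaks in every list, and 221 had that much in no single list. In 189 domains every WT list and no KO list reached 3000 bp, and in 2 the converse held. Domains that reached 3000 bp numbered 424, 393 and 607 in KO libraries 1 to 3 and 939, 887 and 1027 in WT libraries 1 to 3. The domains took 13.3% to 14.2% of all covered length in the KO lists and 9.98% to 10.5% in the WT lists.

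Most broad domains sat on gene starts, about as often as the shared regions nearest to them in width. A protein-coding gene start lay in 856 of them (55.8%, 95% Wilson interval 53.3% to 58.3%, counting error only), against 36.0% of narrower shared regions (35.4% to 36.7%). That lower share came with the short regions: it was 27.7% at 1000 to 1500 bp, 55.2% at 2000 to 2500 bp and 57.2% at 2500 to 3000 bp. Within the broad domains it was 58.3% at 3000 to 4000 bp, 46.3% at 5000 to 7000 bp and 28.1% from 7000 bp on. A longer region can hold a start by its length alone, and the shares are not adjusted for it. A further 305 (19.9%) lay inside a coding gene record without a start, 162 (10.6%) on another kind of record, and 210 (13.7%) on no gene record, where the narrower regions had 20.7%. At least 2 coding genes started in 129 domains (8.41%, against 4.46%). In all, 991 of the 15811 coding genes with a listed start (6.27%) started in a broad domain. The start table is not complete, so these shares are lower limits.

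RNA gene records overlapped a larger share of broad domains than of narrower regions. A miRNA record lay in 45 domains (2.94%, against 0.541% of narrower regions), a tRNA record in 18 (1.17% against 0.605%), a snoRNA record in 8 (0.522% against 0.177%), a small nuclear RNA record in 9 (0.587% against 0.192%), and a long noncoding RNA record in 448 (29.2% against 22.2%). These shares are not adjusted for length either. Ribosomal RNA records lay in 3 broad domains and 1 narrower region. On chromosome 21, 42 of 350 shared regions were broad, the highest share of any chromosome used, and on X 25 of 569 (4.39%).

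The widest domains were repeat arrays. The widest of all, chr21:8385018-8472270, spans 87253 bp with copies of the 45S ribosomal RNA precursor genes RNA45SN3 and RNA45SN1, which encode the large ribosomal RNAs. Peaks covered 86362, 86334 and 86878 bp of it in the KO libraries and 86413, 86292 and 85947 bp in the WT libraries. The next, chr21:8202264-8260971, holds RNA45SN2, and 58027 to 58708 bp were covered in the KO lists and 57968 to 58671 bp in the WT lists. The third, chr1:228608420-228648952, holds the 5S ribosomal RNA genes from RNA5S1 on and the start of RHOU, and was covered over 38108 to 39848 bp in the KO lists and 39675 to 40508 bp in the WT lists. The ranges of the genotypes overlapped in all 3 arrays, and the KO to WT ratio of the mean covered widths was 1.00, 1.00 and 0.973.

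Of the 25 domains of 10000 bp or more, 14 (56.0%) overlapped no gene record, against 116 of the 996 domains under 4000 bp (11.6%). The 5 widest without a record were chr10:41868218-41902037 (33820 bp), chr3:195478452-195506977 (28526 bp), chr20:31051844-31075941 (24098 bp), chr2:91509710-91528756 (19047 bp) and chr16:46384352-46401669 (17318 bp). The chromosome 16 domain was covered nearly end to end in each library, 16926 to 17318 bp in the KO lists and 16868 to 17270 bp in the WT lists. The chromosome 2 domain was not, with 5063, 8461 and 13541 bp in the KO libraries and 11626, 18258 and 14739 bp in the WT libraries, so its genotypes overlapped. Others among the 15 widest on no record were chr10:42068908-42084173, chr10:41902636-41915883 and chr1:121762704-121776308. TAF11L3 to TAF11L6, a cluster of near-identical copies on chromosome 5 (12812 bp), closed the 15.

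Among the 15 widest, 3 lay on single-copy genes. The domain of ECM1, an extracellular matrix glycoprotein gene, with parts of TARS2 and FALEC (chr1:150502969-150518923, 15955 bp), was covered over 10392, 8552 and 12033 bp in the KO libraries and 14433, 12448 and 11193 bp in the WT libraries. The genotypes overlapped there. SMAD7, an inhibitor of TGF-beta signalling (chr18:48931639-48946640, 15002 bp), was covered over 6952, 5863 and 7444 bp in the KO libraries and 12506, 13194 and 14146 bp in the WT libraries. Every KO library was below every WT library, and the ratio of the means was 0.508. The domain over TSPOAP1 and MIR142HG, the host of the blood-cell microRNA miR-142 (chr17:58325122-58340019, 14898 bp), had 9007, 9649 and 10022 bp in the KO libraries and 14709, 14309 and 14414 bp in the WT libraries. Here too the genotypes did not overlap, with a ratio of 0.660.

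Some domains stood close together. With gaps of up to 50 kb allowed, 401 domains (26.2%) fell in runs of at least 2, and 48 runs held 3 or more. These runs were looked at after the values were known, and the following were picked from the longest ones over genes with their values seen. A run of 6 domains over 74.6 kb on chromosome 1 holds ECM1, ADAMTSL4 and TARS2, and none of its domains was narrower in every KO library. Another 6 domains over 135 kb span the ephrin ligand genes EFNA4 and EFNA3 and the mucin gene MUC1, with ratios from 0.832 to 1.26. A run of 4 domains over 41.8 kb lies on TNFAIP8, an apoptosis inhibitor induced by NF-kB, and all 4 were narrower in every KO library, with ratios from 0.138 to 0.628. A run of 4 domains over 131 kb spans the chromosome 6 histone cluster, and all 4 were narrower too, with ratios from 0.711 to 0.784. Other runs of 4 or 5 domains over coding genes were mixed. Narrower in every KO library were 4 of 5 at LPA and 3 of 5 at ANXA2R. At GRK6 and PRR7 it was 2 of 4, and at TRIM7 and TRIM41 2 of 4. Of all shared regions 54.2% were narrower in this sense.

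Immunoglobulin loci, which plasma cells transcribe heavily, also held domains. Of 7 domains on the IGH, IGK and IGL records, the widest (chr22:22882048-22890305, 8258 bp, on IGL) was covered over 4649, 4581 and 6243 bp in the KO libraries and 6482, 6017 and 7261 bp in the WT libraries. The 2 IGK domains had ratios of 1.07 and 1.01, and the 3 IGH domains 0.543, 0.839 and 0.411. Both IGK domains overlap only the record of the whole locus and no record of a gene segment.

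Covered width was lower in the KO lists, in broad domains as in narrower regions. The median width covered over the 1533 domains was 2471, 2447 and 2792 bp in KO libraries 1 to 3 and 3177, 3114 and 3250 bp in WT libraries 1 to 3. That is 2570 ± 193 bp against 3180 ± 68.1 bp (mean ± SD, n = 3 each), or 80.8% of WT. Over the narrower shared regions it was 884 ± 68.5 bp against 1206 ± 35.5 bp, or 73.3%. All 3 KO medians lay below all 3 WT medians in both sets. The gap between these shares was small for like regions: at coding gene starts it was 82.0% in broad domains and 80.8% in narrower regions, and it was 78.2% for shared regions of 2500 to 3000 bp and 78.9% for domains of 3000 to 4000 bp. Because width in all 6 lists chose the domains, this is a description and carries no test.

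**Figure D1:**
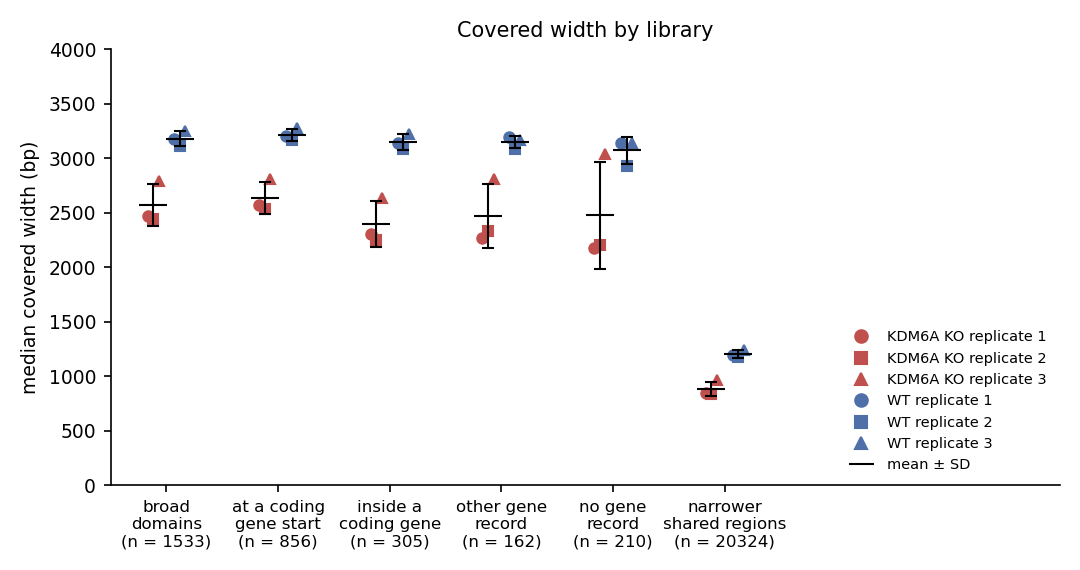
Median bp covered by peaks per region in each of the 6 libraries (points), with mean and SD over 3 libraries per genotype (black), for all broad domains, for 4 kinds of position, and for narrower shared regions. The KO points lie below the WT points in each set except domains with no gene record, where KO library 3 (3037 bp) lies above WT library 2 (2927 bp).

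By position the KO share of the WT width ran from 76.1% to 82.0%, a spread that was not tested. Domains over a coding gene start kept 82.0% of the WT median, those inside a coding gene 76.1%, those on another record 78.5% and those on no record 80.6%. In the last set KO library 3 had a median of 3037 bp, far from the 2180.5 and 2208.5 bp of the other KO libraries and within the WT range of 2927 to 3144.5 bp. The 3 ribosomal RNA domains were at 100.3% of WT. Taking only the widest single peak in each domain gave 74.4%. The KO lists held the domains in more pieces. A single peak held the whole covered part in 56.8% to 69.1% of domains in the KO lists and 73.1% to 82.4% in the WT lists.

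Taken one by one, the 1533 domains had a median KO to WT ratio of covered width of 0.811, with the middle 50% between 0.681 and 0.916. The ratio was below 1 in 1371 domains (89.4%), below 0.5 in 125 and at least 0.9 in 438. In 833 domains (54.3%) every KO library was narrower than every WT library, against 54.2% of all 21857 shared regions. In 11 domains (0.718%) every KO library was wider, against 0.613% of all shared regions. Both shares are close to the background over all positions. By position the first was not: it was 58.6% at coding gene starts, against 50.1% of all shared regions there, 61.3% against 56.5% inside coding genes, 50.6% against 58.3% on other records, and 29.5% against 56.1% on no gene record. Width chose the domains, so nothing is read from these shares. Covered widths correlated across the 1533 domains with Spearman rho of 0.744 to 0.814 between KO libraries, 0.733 to 0.768 between WT libraries and 0.515 to 0.642 between genotypes. All pairs share the same domains.

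Which lists chose the domains mattered for this comparison. Where domains were chosen by the same rule from the 3 KO lists alone, the ratio of median covered widths was 0.883 and 241 of 692 (34.8%) were narrower in every KO library, against 52.8% of all regions called in those 3 lists. Chosen from the 3 WT lists alone, the ratio was 0.792 and 843 of 1409 (59.8%) were narrower, against 65.8%. With all lists shortened to the strongest 33018 peaks, 1424 domains remained, the ratio was 0.818, and 755 (53.0%) were narrower, against 56.5% of all shared regions.

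The lowest ratios among domains whose genotypes did not overlap were at LINC02234, inside TNFAIP8, near FOXI2, at LOC101929692 and at ARID5B. LINC02234, a long noncoding RNA gene on chromosome 5, was covered over 449, 306 and 443 bp in the KO libraries and 3364, 2249 and 3135 bp in the WT libraries, a ratio of 0.137. The TNFAIP8 domain had 310, 297 and 606 bp against 2747, 2593 and 3475 bp, a ratio of 0.138, at low folds of 3.91 to 4.77 in the KO lists and 6.19 to 6.92 in the WT lists. At the ARID5B start whose promoter is printed above, the KO libraries had 1038, 718 and 1407 bp and the WT libraries 4214, 4317 and 6014 bp, a ratio of 0.217. In these 3 domains every KO library covered less than 1500 bp and every WT library more than 2000 bp.

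The converse was rare. RAB26, a small GTPase gene of vesicle traffic, had 2394, 2815 and 2520 bp in the KO libraries and 1921, 820 and 1380 bp in the WT libraries, a ratio of 1.88. HMGA1, which encodes an architectural chromatin protein, had 2831, 2741 and 3133 bp against 2011, 2492 and 2013 bp, a ratio of 1.34. PRR36 had 3048, 3945 and 3571 bp against 2092, 2944 and 2665 bp (1.37), and LINC02870 had 2362, 2643 and 3430 bp against 2036, 1794 and 1943 bp (1.46). The remaining one of the 5 highest, chr21:7257034-7261830 with no gene record, had a ratio of 1.62 with one WT library at 555 bp and the others at 3109 and 3015 bp.

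Around gene starts the KO domains were shorter on both sides, more so on the side of the gene body. In the 518 domains with exactly 1 listed coding start, the peak over the start reached a median of 952.5, 908 and 1047 bp upstream in the KO libraries and 1264, 1213.5 and 1306 bp in the WT libraries. Downstream it reached 1117.5, 1091 and 1324 bp against 1601, 1626.5 and 1797 bp. The means were 969 ± 71.0 against 1261 ± 46.3 bp upstream (76.8% of WT) and 1178 ± 128 against 1675 ± 107 bp downstream (70.3%; SD, n = 3 each). The start itself lay in a peak in 94.0% to 96.3% of domains in the KO lists and 96.7% to 98.8% in the WT lists. At 1000 bp downstream coverage was 63.6% against 83.7%, and at 1000 bp upstream 47.7% against 66.1%. Whether the downstream and upstream differences differ from each other was not tested.

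**Figure D2:**
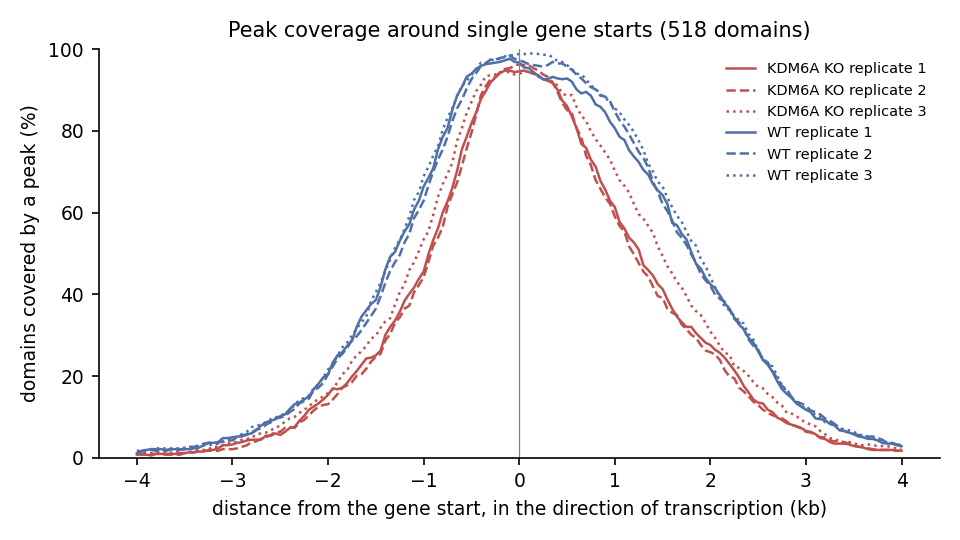
Share of 518 domains with 1 coding gene start in which a peak covers each position (vertical axis, percent) by distance from the start (horizontal axis, kb, positive into the gene), 1 line per library. All lines peak near the start, above 90%, and the KO lines fall faster on both sides, to 28.1% at 2 kb downstream where the WT lines average 42.9%.

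By strength rather than width, broad domains were among the strongest regions in both genotypes. At equal list length they ranked slightly higher in the KO lists, while their folds over background were lower there. Each list was cut to its strongest 33018 peaks by −log10 p, and each domain took the rank of its strongest peak, 1 being the strongest. The median rank of the 1533 domains was 5391, 5274 and 5004 in the KO libraries and 5934, 5940 and 6012 in the WT libraries, that is 5223 ± 198 against 5962 ± 43.4 (SD, n = 3 each). The difference of −739 ranks was larger than the spread between libraries, with p = 0.1 in a two-sided exact permutation test, the smallest value that 3 against 3 libraries can give, so the test cannot pass 0.05. The narrower regions had medians of 12214.5 to 12384.5 over the 6 libraries. All these medians lie above the cut, so they are the same in the full lists. The full lists held 33018 to 37269 peaks in KO and 54409 to 56012 in WT. Set against those lengths, the KO medians of the broad domains lay further down the list than the WT medians. The higher KO rank therefore holds at equal list length only.

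The strongest 10% of the 33018 peaks kept per list held 35.2% to 37.8% of the broad domains in the KO lists and 31.9% to 32.8% in the WT lists. These peaks are a smaller part of the full WT lists, which are longer. The domain's strongest peak ranked better in every KO library than in every WT library in 437 domains (28.5%, against 20.4% of all shared regions), and worse in every KO library in 230 (15%, against 15.9%). The first share lies above its background and the second near it. At coding gene starts the first share was 27.8% in broad domains and 26.7% in narrower regions, so it was not particular to broad domains there. On no gene record it was 42.4% against 16.0%, and inside coding genes 23.6% against 16.8%. These differences were not tested. Of the 1533 domains, 0 to 8 fell below the limit of 33018 peaks in the KO lists and 29 to 56 in the WT lists, and these were given the rank after the last. The 0 belongs to KO library 1, whose whole list sets the limit, so no domain could fall below it there. Every domain had to be called in the shorter KO lists, so ranks past the limit were open mainly to the WT lists. How far this selection bears on the rank difference and its p-value was not tested.

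The base composition of the promoter moved with this rank difference. The 856 domains with a coding start were divided into 4 classes of 213 to 215 by promoter G and C content. In the lowest class (median 57.7%) the median rank was 4558 ± 252 in KO and 4495 ± 197 in WT, a difference of 62.5. In the highest class (median 77.3%) it was 3769 ± 90.4 against 6087 ± 407, a difference of −2319, and the classes between had −388 and −753. Narrower shared regions cut at the same G and C limits had −117, −1203, −1489 and −2963 from lowest to highest. The difference in rank therefore went with G and C content in both sets of regions, and the part of library preparation in it was not tested.

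**Figure D3:**
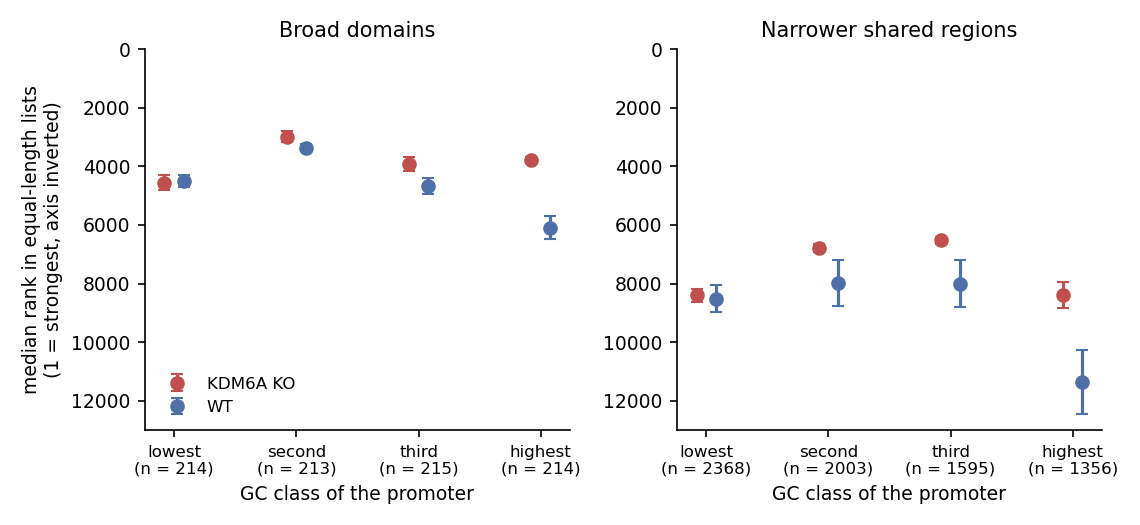
Median rank of regions with a coding gene start (vertical axis, 1 is the strongest, drawn upward) in 4 classes of promoter G and C content, as mean and SD over 3 libraries per genotype, for broad domains (left) and narrower shared regions (right). KO and WT nearly coincide in the lowest class and lie farthest apart in the highest, where broad domains average 3769 in KO and 6087 in WT.

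The KO share of the WT width rose with G and C content from class to class in narrower regions, but not steadily in broad domains. The KO share of the WT median width was 79.2%, 83.9%, 82.8% and 82.2% from the lowest to the highest G and C class of broad domains, and 76.9%, 81.3%, 82.8% and 83.7% in narrower regions. Domains narrower in every KO library made up 155 of 214 (72.4%) in the lowest class and 115 of 214 (53.7%) in the highest. The classes between had 51.2% and 57.2%, so there was no steady fall after the lowest class. In narrower regions at the same limits the share fell from class to class, with 56.3%, 47.8%, 46.5% and 41.4%. It was lower in the highest than in the lowest class in both sets.

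The best ranks belonged to repeated or duplicated sequence. First in all 6 lists was chr1:629070-634927, which holds nuclear copies of mitochondrial genes (MTND1P23, MTND2P28, MTCO1P12 and others), with folds over background from 4453 to 5152 in the KO lists and 4043 to 4197 in the WT lists. The mitochondrial genome itself had 1 peak per list, at a fold of 15157 to 17358, and reads of the 2 sources are nearly identical. ROCK1P1, a pseudogene on chromosome 18, ranked 5 or 6 in each list. DUX4, a multicopy homeobox gene at the end of chromosome 4, ranked 6 to 10. These 3 domains had KO to WT width ratios of 1.00, 0.979 and 0.976. The next were the widest ribosomal RNA array and chr1:125173720-125184580, which overlaps no gene record.

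At the other end, LOC221946 beside ACTB (chr7:5520587-5526991) was covered over 309, 1813 and 3332 bp in the KO libraries and 3487, 3561 and 5450 bp in the WT libraries, at folds of only 3.9 to 6.1. LOC101929692, with ranks after the last in 5 of 6 lists, had 488, 301 and 627 bp against 2511, 2880 and 3647 bp. The other 3 of the 5 worst ranks overlapped no gene record. The one near SPATA31A5 had 1267, 2051 and 1205 bp against 2132, 2603 and 3080 bp, and the one near NEK1 had 849, 366 and 1024 bp against 2264, 442 and 2010 bp. Near POTEA the ratio went the other way, at 1.38, with 653, 887 and 3975 bp in the KO libraries and 1558, 1489 and 947 bp in the WT libraries, so that KO library 3 alone was above the WT range. These domains had low folds, and in several libraries peaks covered only a small part of the merged width.

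Named gene groups were taken from 20 lists that hold 488 genes, chosen with earlier results of these data known. Of 383 list genes with a listed start, 97 (25.3%) started in a broad domain, and 20 others without a listed start had a domain within 1 kb of a gene end. The lists were assembled from well-known active and regulatory genes, so this share is not compared with the 6.27% of all coding genes. For each list below, the count of domains narrower in every KO library stands beside the 54.2% of all shared regions.

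Plasma cell identity genes had domains at 9 of 24 members, of which 6 were narrower in every KO library and 0 wider, with a median ratio of 0.775. MZB1, the chaperone whose promoter is printed above, had the widest (chr5:139387791-139396028, 8238 bp), with 6801, 4506 and 6845 bp in the KO libraries and 7373, 6836 and 6934 bp in the WT libraries. KO library 2 stood low, KO library 1 lay just below the lowest WT library, and KO library 3 lay within the WT range. IRF4, a transcription factor that myeloma cells depend on (chr6:389269-395072), had 4103, 3985 and 4062 bp against 5710, 5771 and 5796 bp. Both genotypes were tight and far apart there, with a ratio of 0.703. SDC1, which encodes the plasma cell surface protein CD138, had 3609, 3467 and 4458 bp against 4396, 4590 and 4873 bp, and XBP1, the regulator of antibody secretion, 755, 1705 and 1787 bp against 1970, 2569 and 3907 bp. SDC1 overlapped between genotypes and XBP1 did not. ELL2, with a wider domain than XBP1, had 3584, 3200 and 4169 bp against 4695, 4597 and 4838 bp, a ratio of 0.775. XBP1, with a ratio of 0.503, has the widest domain of the unfolded protein response list.

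B cell genes had 4 domains for 22 members, at FOXO1, BTG1, BCL11A and IKZF1, with 3 narrower in every KO library and the lowest median ratio of the lists (0.589). FOXO1, with the widest, had 3045, 2197 and 3669 bp in the KO libraries and 3677, 3725 and 4760 bp in the WT libraries, a ratio of 0.733. IKZF1, the lymphoid factor Ikaros, had 690, 518 and 1716 bp in the KO libraries and 2804, 2886 and 2831 bp in the WT libraries. It is named outside the rule of widest domains, with the narrowest merged domain and the lowest ratio of the 4 (0.343). BTG1, an antiproliferative gene, had 3185, 2769 and 3211 bp against 4696, 4196 and 4770 bp. Genes of other blood cell types had 0 domains for 20 members.

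Immediate early genes were the list with the most domains. They encode AP-1 subunits, zinc finger factors and signalling brakes that cells switch on within minutes of a stimulus. Of 31 members 20 had one, in 21 domains, of which 10 were narrower in every KO library and 2 wider, with a median ratio of 0.918. IER2 (chr19:13149133-13156555, 7423 bp) had 5940, 6872 and 6468 bp in the KO libraries and 6985, 6748 and 7230 bp in the WT libraries, so the genotypes overlapped. JUNB, an AP-1 subunit, had 4902, 5788 and 5569 bp against 5952, 5638 and 5821 bp and overlapped as well.

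The 2 domains that were wider in every KO library belong to the FOS family of AP-1 subunits. FOSB had 3412, 3385 and 3708 bp in the KO libraries and 3084, 3039 and 2833 bp in the WT libraries, a ratio of 1.17. FOS had 2913, 2720 and 2904 bp against 2655, 2680 and 2448 bp, a ratio of 1.10. They were singled out after their values were seen. The lowest ratio of the list, 0.524, was in one of 2 domains at ZFP36L2, an RNA-binding protein that destabilises transcripts, with 2307, 2400 and 2411 bp against 4949, 4549 and 4095 bp.

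Myeloma oncogenes and survival genes had domains at 12 of 24 members, 7 narrower in every KO library and 0 wider. IRF2BP2 (chr1:234605999-234613317, 7319 bp) had 5282, 5046 and 5279 bp in the KO libraries and 6457, 6735 and 7017 bp in the WT libraries. CCND2, a D-type cyclin, had 5534, 4560 and 5967 bp against 6083, 6178 and 6469 bp. BCL2, the survival factor, had 2111, 1846 and 2382 bp against 3787, 3740 and 3748 bp, a ratio of 0.562, while PIM3, a survival kinase, had 3463, 3408 and 4425 bp against 2622, 3609 and 3347 bp and overlapped. BCL2 and PIM3 were named after their values were seen, as the low and high ends of the list.

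The KDM6A-related list had domains at 7 of 22 matched members, 3 of them narrower in every KO library and 0 wider. BRD2 (chr6:32967191-32974086, 6896 bp) had 5744, 5993 and 5725 bp in the KO libraries and 5822, 6835 and 6452 bp in the WT libraries. KMT2A, an H3 lysine 4 methyltransferase, had 3947, 2606 and 3402 bp against 3934, 3752 and 3869 bp. KDM6B, the paralog of KDM6A, had 3289, 3169 and 3308 bp against 2862, 3133 and 3195 bp. KMT2C, a methyltransferase that partners KDM6A, had 1472, 1506 and 1683 bp against 3512, 3641 and 3576 bp, a ratio of 0.434 with tight libraries on both sides. In covered width the first 3 overlapped between genotypes and KMT2C did not. The strength of the KMT2C domain was not lower, with a mean fold of 12.8 in both genotypes. Its rank was better in every KO library (7741, 5400 and 8289) than in every WT library (15441, 10147 and 8964).

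Polycomb, SWI/SNF and other chromatin regulators had 6 domains at 5 of 29 members, 3 narrower in every KO library, with a median ratio of 0.617. Both ARID5B domains were among them, and the second (chr10:61899042-61904045) had 1816, 2044 and 2461 bp in the KO libraries and 4992, 4408 and 4837 bp in the WT libraries. ARID1B, a SWI/SNF subunit, had 2422, 3539 and 2726 bp against 3346, 4252 and 4292 bp.

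**Figure D4:**
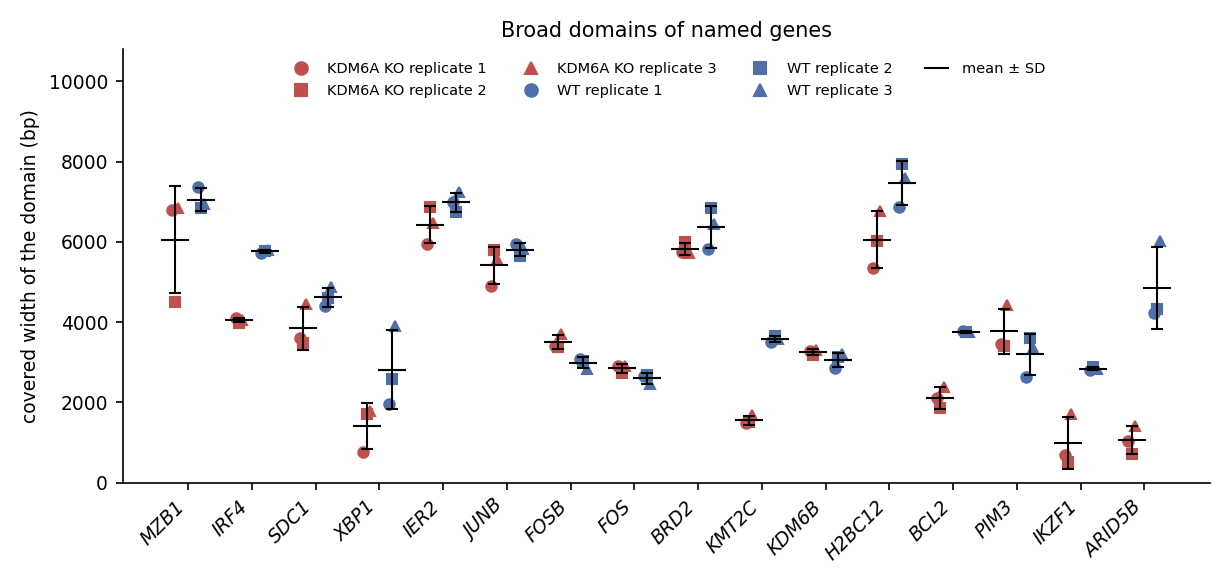
Covered width in bp (vertical axis) of the broad domain of 16 named genes in each of the 6 libraries (points), with mean and SD over 3 libraries per genotype (black). IRF4, KMT2C, BCL2 and ARID5B show KO and WT points well apart, for example 3985 to 4103 bp against 5710 to 5796 bp at IRF4, while FOSB and FOS are wider in each KO library and the immediate early gene IER2 overlaps.

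Histone genes of the S phase clusters shared 4 domains among 7 of 22 members, and all 4 were narrower in every KO library. The domain of H2BC12 and H2AC12 (chr6:27141028-27149488, 8461 bp) had 5355, 6031 and 6766 bp in the KO libraries and 6870, 7936 and 7591 bp in the WT libraries. H3C4 had 3951, 3141 and 4655 bp against 4968, 4887 and 5119 bp. With members sharing domains, these are 4 observations and not 7. Cell cycle genes had 4 domains for 24 members, at CDK6, E2F3, CCNE2 and MKI67, and all 4 were narrower too. CDK6, with the widest, had 4749, 4946 and 4616 bp against 5185, 5133 and 5012 bp. E2F3, the next, had 4182, 3979 and 4168 bp against 4367, 4882 and 4427 bp, a ratio of 0.902. MKI67, the proliferation antigen Ki-67, had 1436, 1387 and 1532 bp against 2883, 2979 and 2995 bp. It is named outside the rule of widest domains, with the narrowest merged domain and the lowest ratio of the 4 (0.492). The median ratio of the cell cycle list was 0.855.

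Cytokine and JAK-STAT genes had domains at 7 of 22 members, 3 narrower in every KO library. CCR10, a chemokine receptor of plasma cells, lay by the widest (chr17:42673968-42681054, 7087 bp), with 6254, 4917 and 6591 bp in the KO libraries and 6153, 4687 and 5742 bp in the WT libraries. IL6R, the receptor for the myeloma growth factor interleukin 6, had 3318, 2109 and 3389 bp against 4399, 4341 and 4265 bp. The NF-kB list had 2 domains for 22 members, TNFAIP8 and NFKBIE, both narrower in every KO library, with 2175, 2702 and 2430 bp against 4716, 4694 and 5572 bp at the TNFAIP8 start. Of 25 interferon and MHC class I genes, which make cells visible to T cells, only IRF2 had a broad domain, while 21 lay in narrower shared regions.

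Stress and secretion genes were mixed. Unfolded protein response genes had 5 domains for 25 members (2 narrower), heat shock and proteostasis genes 7 domains at 6 of 24 members (2 narrower), and redox and metabolism genes 5 for 24 (4 narrower). DDIT3, the stress factor CHOP, had 2917, 2977 and 2990 bp in the KO libraries and 3202, 2887 and 2579 bp in the WT libraries, the KO range lying within the WT range. HSPA8, a constitutive chaperone, had 3647, 2820 and 3075 bp against 4562, 4555 and 5547 bp. HSPA1A and HSPA1B, near-identical heat shock genes whose reads can be split between them, each had a domain and overlapped between genotypes. PFKFB3, a glycolysis regulator, had 3859, 4073 and 4251 bp against 4177, 3826 and 3833 bp.

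Housekeeping genes had 9 domains at 8 of 21 members, 6 narrower in every KO library, and a median ratio of 0.824 beside 0.811 for all domains. GAPDH, whose promoter the submitters measured as a library quality check, had 3902, 4016 and 3878 bp in the KO libraries and 4180, 4127 and 3769 bp in the WT libraries. TUBB, a tubulin gene, had 3608, 3187 and 3592 bp against 3695, 4451 and 4155 bp. Ribosomal protein and translation genes had 5 domains for 29 members (3 narrower, median ratio 0.677), led by EEF1A1, the elongation factor, with 2354, 2557 and 2319 bp against 3771, 3731 and 3070 bp. Splicing genes had 3 for 25 (2 narrower), noncoding RNA host genes 6 for 24 (2 narrower), and developmental transcription factors 2 for 28 (ID2 and HES1, 1 narrower).

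**Figure D5:**
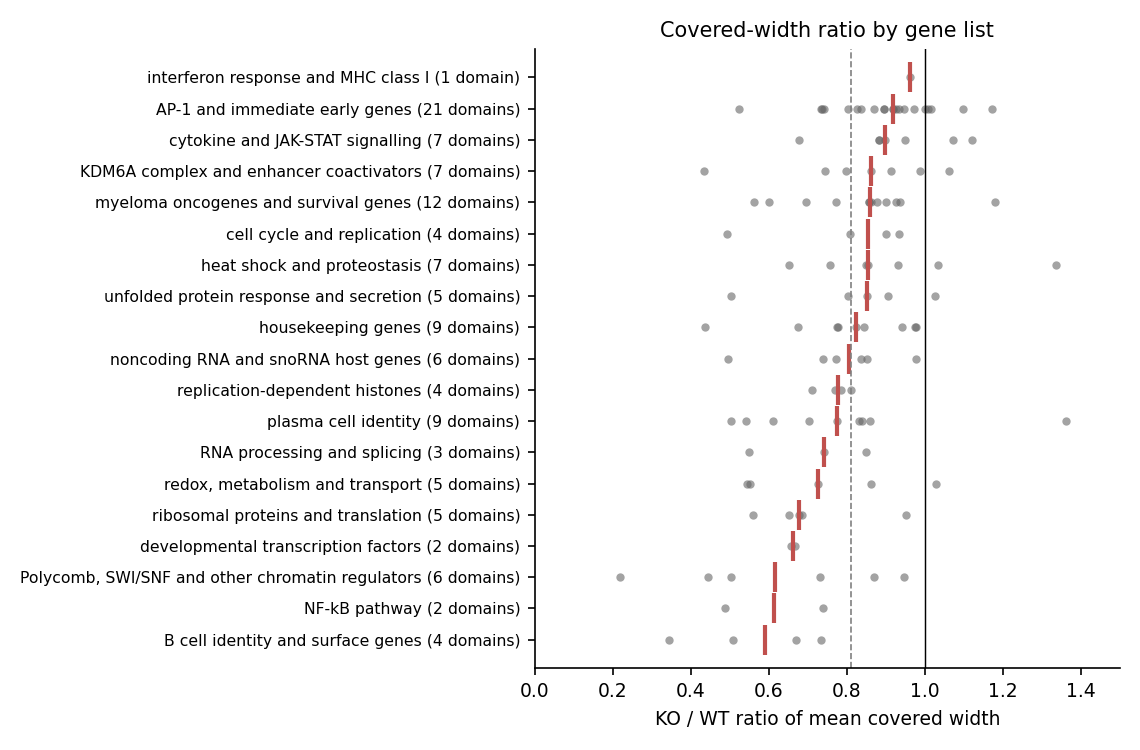
KO to WT ratio of mean covered width (horizontal axis) for each broad domain of 19 gene lists (grey points), with the median of each list (red bar), the median of all 1533 domains at 0.811 (dashed) and equal width (solid line). List medians run from 0.589 for B cell genes to 0.962 for the single interferon-list domain, and immediate early genes (0.918) have the most domains.

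Transfer RNA genes, transcribed by RNA polymerase III, had domains where several copies sit together. A cluster on chromosome 1 repeats the same set of glutamate, glycine, aspartate and leucine tRNA genes, and 4 domains stand there within 27.5 kb, with ratios from 0.763 to 0.818. Their copies are near-identical, so their widths are not independent. A tRNA domain on chromosome 5 (chr5:181187006-181192847) had 5315, 5531 and 5600 bp in the KO libraries and 5818, 5427 and 5770 bp in the WT libraries. The one at KCTD2 had 1353, 1441 and 1388 bp against 3202, 2101 and 2818 bp, the lowest ratio among domains with a tRNA record (0.515).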

How the data were processed

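The data were ATAC-seq peak lists of the ARP1 line, 3 KDM6A knockout and 3 wild-type libraries grouped by their labelled genotype. Reads were pairs of 150 bp from a NextSeq 500, per the labels. Bowtie2, Trimmomatic and MACS2 2.1.2 are named with the build GRCh38, per the submitters' processing notes, while no source used here gives their settings, any Tn5 offset or any removal of duplicates. Each library has its own list, so replicates were not pooled. In the deposited lists each peak has a score, which is the −log10 q-value times 10, a fold over background (a ratio), and a −log10 p-value and −log10 q-value, all the authors' peak caller's own values.

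Below a fold of 100 all deposited fold values were whole multiples of 1 step per list (tolerance 0.01 of a step), from which the background pileup was recovered. Peaks were merged at 1 bp overlap, and covered width is the bp of a merged region under a library's peaks. Ranks used −log10 p in lists shortened to 33018 peaks. Median ranks were compared with a two-sided exact permutation test over the 20 labellings (smallest p 0.1). Intervals are 95% Wilson intervals, counting error only. Gene records, starts and promoters came from RefSeq on GRCh38.p14. The start table gave positions and strands, and list genes missing from it were matched within 1 kb of either gene end. Of the 488 list genes all but UTY matched a record, and 2 names were 1 gene.

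The members, gene lists and naming rules were chosen with earlier results of these data known. Named were the 15 widest domains, the 5 with the lowest and the 5 with the highest width ratio among those whose genotypes do not overlap, the 5 best and 5 worst ranks, the 3 on each side of the width limit, the 5 widest with no gene record, and for each list 2 to 4 genes with the widest domains. Genes named otherwise are marked as chosen after their values were seen, marked as outside the rule of widest domains or, in the lists, given as further members. Alternatives changed the width limit, overlap, dense bins, chromosomes, list length, q limit and libraries. Scripts were tested on simulated lists. Python 3.11.15, numpy 2.4.6, pandas 2.3.3 and scipy 1.17.1 were used.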

Additional observations from a re-analysis of the deposited data

How the results depend on the processing

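The number of broad domains followed the width limit, 2847 at 2500 bp and 537 at 4000 bp against 1533, and with it the number narrower in every KO library, 1596 and 275 against 833. Chosen from the KO lists alone, 241 domains were narrower and the ratio of median covered widths was 0.883 against 0.808, and with the widest single peak of each domain the ratio was 0.744. The share over a coding gene start was 51.2% at 4000 bp, 42.9% with peak-dense bins kept and 59.0% with lists of equal length, against 55.8%. It was 64.7% with regions on no gene record left out, an alternative chosen after seeing the data. At equal list length the rank difference stayed negative under all alternatives run. With peak-dense bins left out before ranking it was −745 (added after seeing the data). Ranking by fold gave −739 again, and a replicate block cannot change this mean difference. No alternative took rank as a share of the full list or compared the fold values themselves. Set against full list length, the KO medians lay further down than the WT medians. Leaving out any 1 library changed no direction and moved no count by over 1.5 times. Replicate numbers did not pair the libraries: deviations of same-numbered libraries from their group means correlated at −0.063, −0.012 and −0.132. With a replicate block the rank difference was −739 (sign-flip exact p = 0.25, the smallest possible) and the width ratio 0.808. Read depth is not in the lists, so how far it limits widths in the KO lists is unknown.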
